A study of Mus musculus with 10 samples.

Results

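The genes described here encode enzymes that turn arachidonic acid into leukotrienes and prostanoids, 10 genes of the 55359 in the count files. They were picked by symbol, Alox5, Alox5ap, Lta4h, Ltc4s and Alox15 for the lipoxygenase branch and Ptgs1, Ptgs2, Ptges, Hpgds and Tbxas1 for the cyclooxygenase branch. The group was proposed with the contrast of Ccr2 knockout against control already known, with Alox5 as its leading gene. Differences between the genotypes in these 10 genes are therefore given as a description, with no p-value, and support nothing. The study profiled macrophages sorted for F4/80 from Braf-mutant melanomas that had rebounded under daily Braf and Mek inhibitors in male mice. Control mice were Ccr2RFP/+, heterozygous for the reporter allele that replaces Ccr2, Ccr2 knockout mice were Ccr2RFP/RFP and lack a working copy, and 5 libraries were made per genotype. All of the tumours, in either genotype, were drug-treated and resistant, so no untreated or drug-sensitive macrophages enter the comparison. The labels give neither age, strain and tumour model details nor the number of animals per library, so p-values measure only the spread between libraries, which may be technical.

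Arachidonic acid is released from membrane phospholipids and then enters one or the other enzymatic branch. In the lipoxygenase branch 5-lipoxygenase (Alox5), helped by the membrane protein FLAP (Alox5ap), makes leukotriene A4, which Lta4h converts to the leukocyte attractant leukotriene B4 and Ltc4s to leukotriene C4, the first of the cysteinyl leukotrienes. In the cyclooxygenase branch Ptgs1 and the inducible Ptgs2 make prostaglandin H2, from which Ptges makes prostaglandin E2, Hpgds prostaglandin D2 and Tbxas1 thromboxane A2. Macrophages are known as a source of mediators from both branches.

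The libraries held between 34639808 and 43360206 counts in genes, so 1 count stood for 0.0220 to 0.0286 CPM (counts per 1000000 counts in genes, with TMM library factors). Ccr2 ran from 59.0 to 177 CPM in the controls against 3.23 to 6.28 CPM in the knockouts, and each library matched its genotype label. Adgre1, which encodes F4/80, stood at 1826 ± 114 CPM in the controls against 1836 ± 189 CPM in the knockouts (SD, n = 5). Control libraries 1 and 2, and control libraries 3 and 4, lay closer to each other (median chi-square per gene 2.75 and 2.66) than any other pair of libraries (5.71 or more), although not as close as sampling noise allows (0.455). Knockout libraries 4 and 5 stood apart from the other 8 in early-response genes, which are induced within minutes of stimulation or tissue handling, with a summed level of 2108 and 1994 CPM against 6639 to 16026 CPM.

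The promoters of the enzymes that open each branch are shown because these genes behaved differently across the libraries, as the values further on show. Each line gives the 250 bases before the transcription start listed by RefSeq on GRCm38.p6, 5′ to 3′ on the gene's strand, with motif matches in capitals. Alox5 lies at chr6:116461179-116461428 on the minus strand, Ptgs1 at chr2:36230176-36230425 on the plus strand and Ptgs2 at chr1:150099781-150100030 on the plus strand. The counts were made on GRCm39, and no coordinate was carried between the builds.
Alox5: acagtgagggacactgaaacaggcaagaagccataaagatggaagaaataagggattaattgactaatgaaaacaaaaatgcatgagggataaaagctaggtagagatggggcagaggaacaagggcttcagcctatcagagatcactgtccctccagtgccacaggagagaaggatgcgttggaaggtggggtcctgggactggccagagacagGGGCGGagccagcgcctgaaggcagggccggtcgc
Ptgs1: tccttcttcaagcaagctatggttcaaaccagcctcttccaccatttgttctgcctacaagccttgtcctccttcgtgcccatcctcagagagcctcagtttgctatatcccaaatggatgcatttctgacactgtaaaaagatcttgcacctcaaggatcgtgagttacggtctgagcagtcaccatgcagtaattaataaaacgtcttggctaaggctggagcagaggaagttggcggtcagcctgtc
Ptgs2: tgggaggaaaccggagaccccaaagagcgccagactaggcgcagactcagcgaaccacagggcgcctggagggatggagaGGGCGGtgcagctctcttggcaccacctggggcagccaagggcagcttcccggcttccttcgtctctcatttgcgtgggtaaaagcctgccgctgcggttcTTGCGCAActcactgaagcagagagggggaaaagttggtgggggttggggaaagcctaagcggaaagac
The motifs searched, on both strands of the full RefSeq window of 300 bases, which ends 50 bases after the start, were the GC box GGGCGG, the E-box CACGTG, the cyclic AMP response element core TGACGT, the C/EBP palindrome TTGCGCAA and the TATA box TATAAA. Ptgs2 held a C/EBP palindrome 69 bases before its listed start, a motif in 0.183% of all 32851 windows, and a GC box 170 bases before it. Within the first 30 bases after the start, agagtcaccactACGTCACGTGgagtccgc, Ptgs2 also held a cyclic AMP response element core (in 7.51% of all windows) whose last 2 bases are the first of an E-box (in 7.15%). Alox5 held 1 GC box, 35 bases before its start, a motif in 35.7% of all windows, and Ptgs1 held none of these motifs. Of the other members, Ptges held 2 GC boxes and Tbxas1 2 overlapping TATA boxes, while Lta4h, Ltc4s and Hpgds held none of the motifs. RefSeq windows were matched for 8 of the 10 members, all but Alox5ap and Alox15. A match is a run of letters and does not show binding. Distances are from the start listed by RefSeq, and whether transcription began there in these libraries was not tested.

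Alox5 was the 1 member of the 10 past the threshold in the comparison over all genes, and it was higher in every Ccr2 knockout library. In control libraries 1 to 5 it stood at 14.6, 13.9, 8.09, 6.96 and 17.2 CPM, and in knockout libraries 1 to 5 at 88.2, 29.9, 100.4, 36.8 and 30.7 CPM. The groups did not overlap, and the lowest knockout library was 1.74 times the highest control library. Means were 12.1 ± 4.41 and 57.2 ± 34.2 CPM (SD, n = 5 each), and the log2 fold change was 2.24 (SE 0.42). Within the knockout group libraries 1 and 3 stood well above the other 3, so the size of the rise differed 3.35-fold between knockout libraries while its direction did not. Behind these levels were 283 to 707 counts in control and 1175 to 4014 in knockout libraries.

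**Figure D1:**
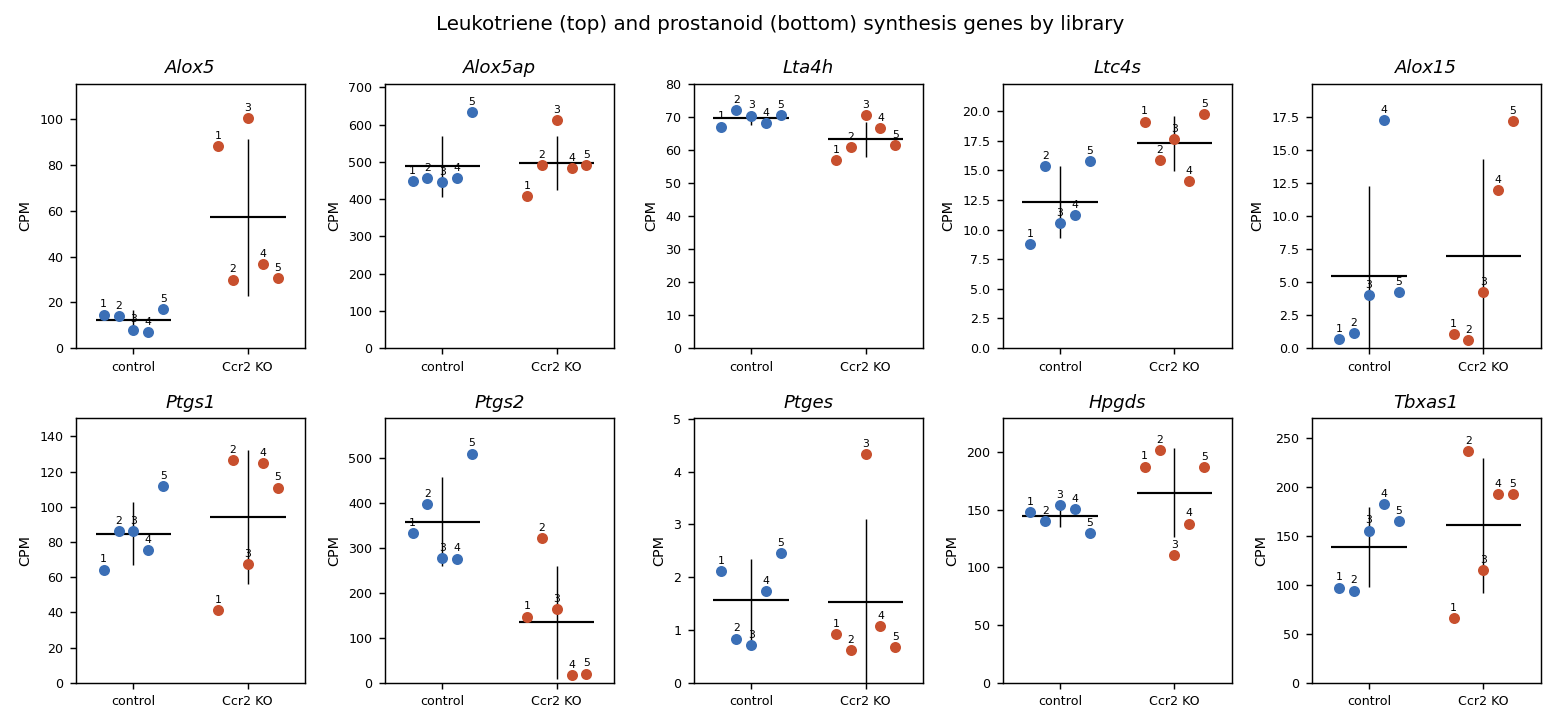
CPM of the 10 members in each library (numbered points), with the group mean as a horizontal bar and 1 SD as a vertical line, the lipoxygenase branch above and the cyclooxygenase branch below. Alox5 is the gene whose groups do not overlap, and Ptgs2 is at 17.0 and 20.7 CPM in knockout libraries 4 and 5.

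The test of all genes was edgeR's quasi-likelihood F-test, with Benjamini-Hochberg adjusted p-values under 0.05 called. Of 14374 genes tested 1.41% passed it, 0.87% higher and 0.543% lower in Ccr2 knockout libraries, and in 4.7% the control and knockout ranges lay apart. All 10 members passed the filter on low counts. Among them 1 was called, higher, and 1 had groups that did not overlap, Alox5 each time; since this contrast chose the group, nothing is read from that count. The median log2 fold change was 0.17 over the 10 members, 0.35 over the lipoxygenase branch and 0.15 over the cyclooxygenase branch, against 0.00 (-0.0034) over all genes tested. The Alox5 call was lost when control library 1, 2, 3 or 4 or knockout library 1 was left out and when the close control pairs were each counted as 1 library, with log2 fold changes between 2.03 and 2.31 in these fits.

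The members that act beside or directly after 5-lipoxygenase, Alox5ap, Lta4h and Ltc4s, did not pass the threshold. Alox5ap, whose product presents arachidonic acid to the enzyme, was already abundant and stood at 449, 457, 446, 456 and 634 CPM in the controls against 407, 491, 612, 484 and 491 CPM in the knockouts. Its groups overlapped, and its log2 fold change was 0.03 (SE 0.13). Lta4h, the leukotriene A4 hydrolase, was the steadiest member, at 67.0, 72.0, 70.4, 68.1 and 70.6 CPM in the controls against 56.8, 60.7, 70.5, 66.5 and 61.5 CPM in the knockouts. Its control libraries spanned 1.07-fold, and 4 of the 5 knockout libraries lay below all of them (log2 fold change -0.14, SE 0.08). Ltc4s, the leukotriene C4 synthase, stood at 8.76, 15.3, 10.5, 11.2 and 15.7 CPM in the controls against 19.1, 15.8, 17.6, 14.1 and 19.7 CPM in the knockouts. In all but knockout library 4, which lay below control libraries 2 and 5, Ltc4s was above the control range, but its log2 fold change of 0.49 (SE 0.18) did not pass the threshold over all genes.

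Alox15, the lipoxygenase known in mice from resident peritoneal macrophages and eosinophils, varied more between libraries of 1 genotype than between genotypes. It stood at 0.690, 1.11, 4.0, 17.2 and 4.25 CPM in the controls against 1.08, 0.602, 4.23, 11.9 and 17.1 CPM in the knockouts, a 25.0-fold range in control and a 28.5-fold range in knockout. The log2 fold change was 0.35 with a standard error of 0.99, and without knockout libraries 4 and 5 it was -1.47 (SE 1.08). Eosinophil markers, 8 genes of which 3 could be tested and 0 were called by edgeR or DESeq2 or had an unadjusted edgeR p under 0.05, summed to 1.51, 2.67, 2.63, 5.36 and 4.66 CPM in the controls against 2.20, 2.19, 2.97, 4.77 and 8.43 CPM in the knockouts. Their sum, like Alox15, was highest in control library 4 among controls and in knockout library 5 among knockouts, while the eosinophil granule gene Epx did not exceed 0.0489 CPM in any library. The part of these cells in the Alox15 level was not tested.

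Of the cyclooxygenase genes, Ptgs1, the constitutive enzyme, stood at 64.4, 86.4, 86.2, 75.4 and 112 CPM in the controls against 41.5, 126, 67.3, 125 and 111 CPM in the knockouts. Knockout library 1 lay below the control range, libraries 2 and 4 above it and libraries 3 and 5 inside it, with a log2 fold change of 0.15 (SE 0.28). Tbxas1, the thromboxane synthase, followed a profile like that of Ptgs1, at 97.5, 94.3, 156, 183 and 166 CPM in the controls against 66.0, 237, 116, 193 and 193 CPM in the knockouts (log2 fold change 0.21, SE 0.32). Knockout library 1 was the lowest and knockout library 2 the highest of all 10 for both genes. Over the 10 libraries the centred log2 CPM of Ptgs1 and Tbxas1 differed by a root mean square of 0.28, the second smallest of the 45 member pairs after Alox5ap and Lta4h at 0.17. Hpgds, the haematopoietic prostaglandin D synthase, stood at 148, 140, 154, 151 and 130 CPM in the controls against 187, 202, 110, 138 and 186 CPM in the knockouts (log2 fold change 0.19, SE 0.16). Its 3 highest libraries were knockout libraries 1, 2 and 5, and its lowest was knockout library 3.

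Ptgs2, the inducible cyclooxygenase, had the lowest log2 fold change of the members, -1.42, with a standard error of 0.68, and did not pass the threshold. It stood at 333, 398, 277, 276 and 509 CPM in the controls against 147, 322, 164, 17.0 and 20.7 CPM in the knockouts. Knockout library 2 lay inside the control range and the other 4 below it, with an 18.9-fold span within the knockout group against 1.84-fold in control. Knockout libraries 4 and 5 were also the lowest in early-response genes, as given above, and in a list of 15 inflammatory genes, which summed to 616 and 714 CPM there against 3382 to 6506 CPM in the other 8 libraries. None of the 12 early-response and 15 inflammatory genes passed the threshold in edgeR, DESeq2 or limma-voom (edgeR adjusted p from 0.239 to 0.995, with 5 of the 27 at an unadjusted p under 0.05). Leaving out knockout libraries 4 and 5, the log2 fold change of Ptgs2 was -0.76 (SE 0.30) and still did not pass. The part of the state of these 2 libraries in the Ptgs2 level was not tested.

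Ptges, the inducible prostaglandin E synthase, was the least abundant member, at 2.12, 0.840, 0.714, 1.74 and 2.45 CPM in the controls against 0.922, 0.626, 4.33, 1.08 and 0.679 CPM in the knockouts. These levels rest on 25 to 171 counts per library. Its log2 fold change was -0.05 (SE 0.59), and -0.93 (SE 0.41) without knockout library 3, the highest of all. Fibroblast markers, 8 genes of which edgeR called 0 (1 at an unadjusted p under 0.05) and DESeq2 called 1, summed to 1841, 1024, 642, 901 and 2176 CPM in the controls against 554, 254, 3433, 604 and 444 CPM in the knockouts. The knockout libraries fell in the same order for Ptges and for the fibroblast sum, and control libraries 5 and 1 were the highest controls for both. The part of fibroblast RNA in the Ptges level was not tested.

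Compared per length, as CPM per kb of annotated exon, the members differed widely. The length used merges all annotated exons of a gene and can exceed that of the transcript expressed. Ranks between genes therefore depend on the annotation, and comparisons between genotypes do not. In control libraries Alox5ap led at 344 ± 57.5, followed by Ptgs2 at 78.3 ± 21.4, Hpgds at 22.5 ± 1.51, Ptgs1 at 21.8 ± 4.54, Tbxas1 at 15.3 ± 4.48, Ltc4s at 12.2 ± 3.03 and Lta4h at 11.4 ± 0.332 (SD, n = 5). Alox5 came next at 2.96 ± 1.07, then Alox15 at 2.23 ± 2.77 and Ptges at 0.400 ± 0.196. Control library ranges overlapped between each pair of neighbours from Hpgds down to Lta4h and from Alox5 down to Ptges. The order of neighbours within those runs is therefore not resolved. Between members further apart, the Hpgds range lay above those of Tbxas1, Ltc4s and Lta4h. The Ptgs1 range lay above those of Ltc4s and Lta4h, and the Alox5 range above that of Ptges. In knockout libraries Alox5 reached 13.9 ± 8.33, above Lta4h at 10.4 ± 0.873, although its range of 7.29 to 24.4 still overlapped that of Lta4h. Without division by length (4106 and 6102 bases) the order was the reverse, with means of 57.2 CPM for Alox5 and 63.2 CPM for Lta4h. Alox5ap at 350 ± 51.6 remained far above Alox5 per length in either genotype. Ptgs2 stayed in second place by its mean, 29.3 ± 27.4. Its range in knockout libraries, 3.72 to 70.3, overlapped those of Hpgds, Ptgs1, Tbxas1, Ltc4s, Lta4h, Alox5 and Alox15.

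**Figure D2:**
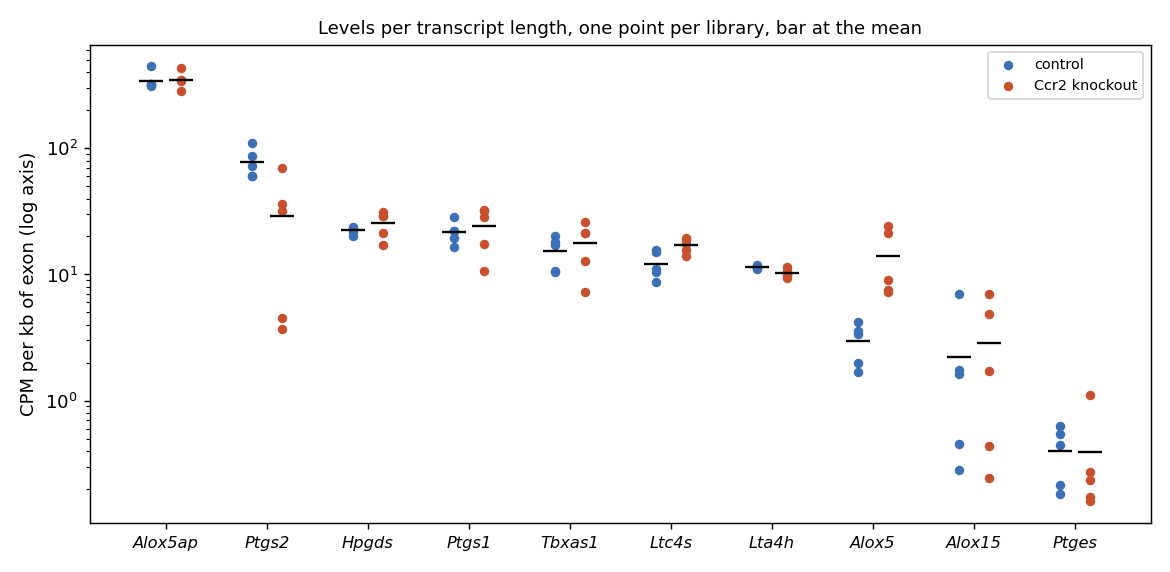
CPM per kb of annotated exon for each member on a log axis, 1 point per library and a bar at each group mean, ordered by the control mean. Alox5ap lies highest in both genotypes and Ptges has the lowest mean, and Alox5 moves from 2.96 in control to 13.9 in knockout libraries.

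Genes whose profile lay nearest to that of Alox5 across the 10 libraries were ranked by the root mean square difference of centred log2 CPM. Of 10892 genes averaging 2 CPM or more, the nearest were the transporter gene Slc10a6 (0.34), Sh3bgrl2 (0.48), the receptor gene Gfra4 (0.49), Fcna, which encodes the lectin ficolin A (0.52), and Hgsnat, an enzyme of lysosomal heparan sulphate breakdown (0.52), against a median of 1.27 over all of these genes. Like Alox5, Slc10a6 was highest in knockout libraries 1 and 3, at 7.07 and 7.78 CPM, against 1.75 to 3.45 CPM in the other knockout libraries and 0.857 to 1.73 CPM in control libraries. For Ptgs2, examined after its values were seen, the nearest were the cytokine genes Osm (0.43) and Il1b (0.46) and the transcription factor genes Nfil3 (0.45), Nr4a2 (0.51) and Nr4a1 (0.53). Il1b stood at 59.1 and 40.1 CPM in knockout libraries 4 and 5, at 467 to 589 CPM in the other knockouts and at 622 CPM or more in the controls. Osm and Nfil3 were also lower in every knockout library than in every control library, while the ranges of Nr4a2 and Nr4a1 overlapped. Ranges lay apart in 4.7% of all genes tested, and none of these neighbours of Ptgs2 passed the threshold. For Alox15, also examined after its values were seen, the nearest profile was that of Retnlg at 0.94, followed by the coagulation factor gene F5 at 0.98, so no gene compared lay as near to it as the named neighbours of Alox5 and Ptgs2 lay to theirs.

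**Figure D3:**
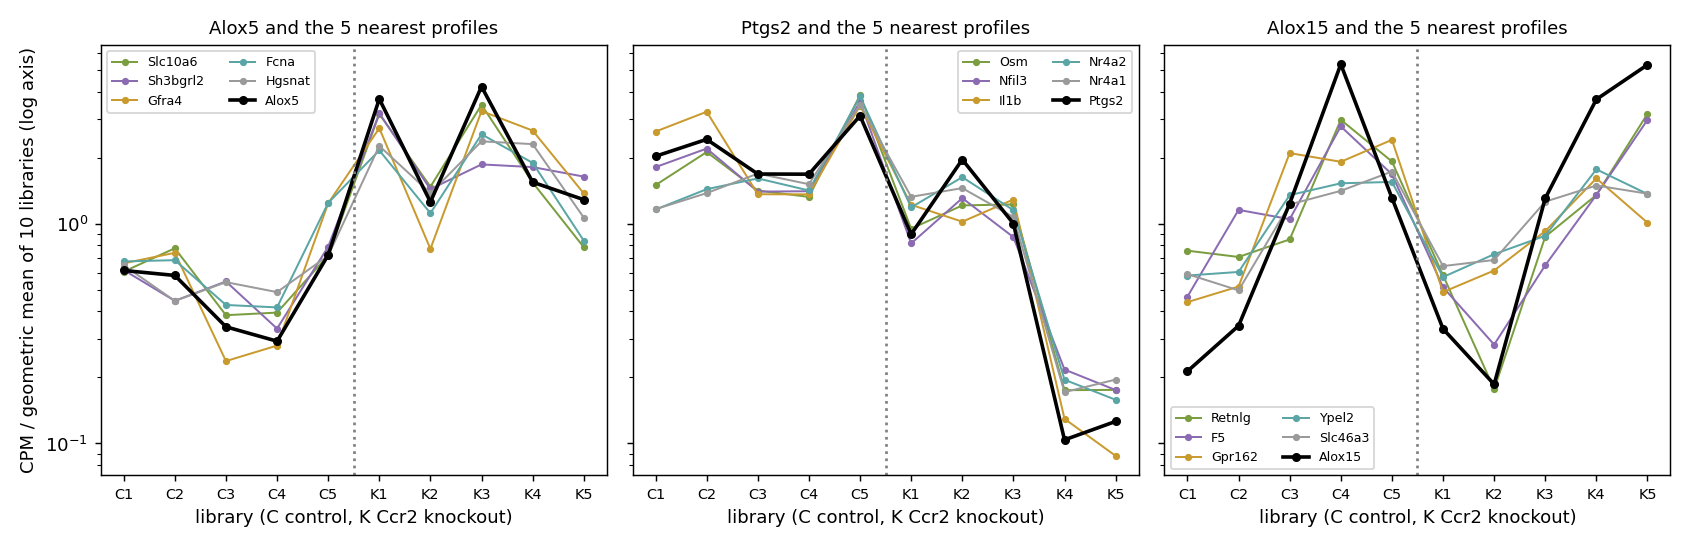
CPM relative to each gene's geometric mean over the 10 libraries (log axis) for Alox5, Ptgs2 and Alox15 in black and the 5 nearest profiles of each in colour. The Alox5 set is highest in knockout libraries 1 and 3, except Hgsnat, which is higher in knockout library 4 than in knockout library 1. The Ptgs2 set is lowest in knockout libraries 4 and 5, and Alox15, Retnlg and F5 are highest in control library 4 and knockout library 5.

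Beyond the 10 enzymes, 79 other genes of eicosanoid release, conversion, transport and reception were listed by role, and 61 of them could be tested. Of these 1 was higher and 2 were lower in Ccr2 knockout libraries, 4.92% against 1.41% of all genes, and the median log2 fold change was -0.06. The lists were chosen with earlier results of these data known, so nothing is read from that share. Cyp4f18, the cytochrome P450 that hydroxylates and so inactivates leukotriene B4 in myeloid cells, fell from 216, 260, 233, 243 and 285 CPM in control to 50.1, 153, 104, 107 and 92.6 CPM in knockout libraries. The groups did not overlap, and the log2 fold change was -1.29 (SE 0.23, edgeR adjusted p = 0.0260). Fpr2, a receptor of formyl peptides and of lipoxin A4, fell from 41.9, 37.8, 19.97, 27.5 and 22.3 CPM to 7.07, 17.0, 6.41, 10.2 and 12.8 CPM (log2 fold change -1.48, SE 0.30, edgeR adjusted p = 0.0411). Ephx1, a microsomal epoxide hydrolase, rose from 11.7, 12.3, 11.3, 17.6 and 13.02 CPM to 22.1, 28.2, 38.6, 25.9 and 28.6 CPM (log2 fold change 1.12, SE 0.17, edgeR adjusted p = 0.0126). For Fpr2 and Ephx1, too, the ranges of the groups lay apart. Ranges lay apart in 3 of the 61 pathway genes tested (4.92%) against 4.7% of all genes tested, so nothing is read from that count. The Cyp4f and Fpr families hold close relatives, and reads mapping to several places were listed as 0, so the split between family members is uncertain.

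**Figure D4:**
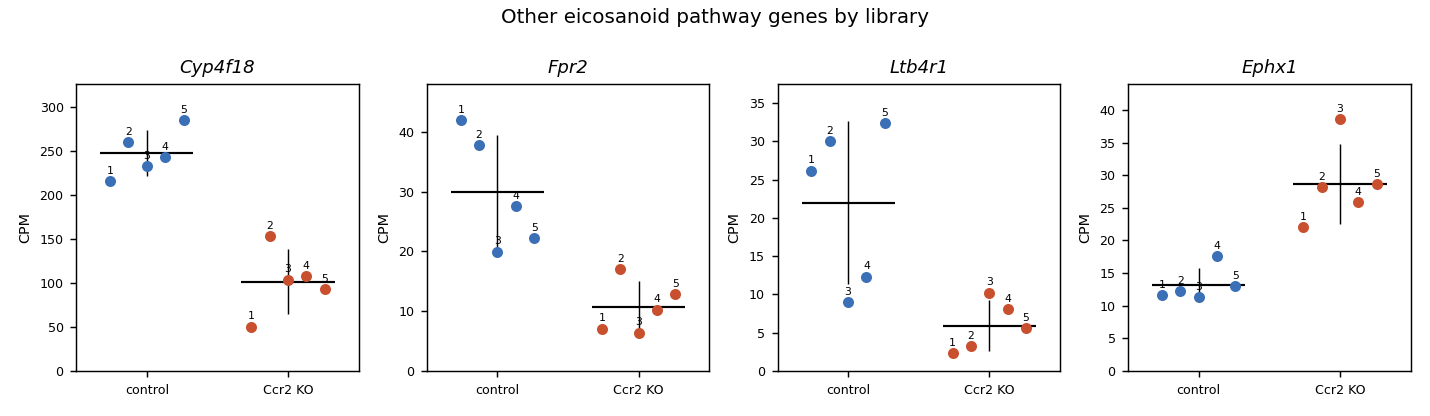
CPM of Cyp4f18, Fpr2, Ltb4r1 and Ephx1 in each library (numbered points), with the group mean as a horizontal bar and 1 SD as a vertical line. Cyp4f18, Fpr2 and Ephx1 have groups that do not overlap, and Ltb4r1 overlaps through control library 3 and knockout library 3.

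These calls depended on single libraries to different degrees. Ephx1 passed with any 1 library left out (edgeR adjusted p from 0.0109 to 0.0475). Cyp4f18 lost its call when control library 1, 2, 3 or 4 was left out, or knockout library 4 or 5 (up to 0.0718), and Fpr2 when any of control libraries 1 to 4 was, or any of knockout libraries 1, 3, 4 and 5 (up to 0.107). With the close control pairs each counted as 1 library none of these 3 passed (edgeR adjusted p = 0.0786 for Ephx1, 0.153 for Cyp4f18 and 0.180 for Fpr2), and without knockout libraries 4 and 5 together none did (0.0731, 0.151 and 0.173).

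The receptors showed no other call in edgeR. Of 8 leukotriene and resolving lipid receptor genes tested 1 was lower, Fpr2, and 6 had negative log2 fold changes. Ltb4r1, the high-affinity leukotriene B4 receptor BLT1, was named after its values were seen. It stood at 26.2, 30.1, 9.03, 12.3 and 32.4 CPM in the controls against 2.28, 3.27, 10.2, 8.09 and 5.59 CPM in the knockouts, at log2 fold change -1.90 (SE 0.47, edgeR adjusted p = 0.0833). Control library 3 lay within the knockout range. Cysltr1, a cysteinyl leukotriene receptor, ran from 34.4 to 63.9 CPM in the controls against 25.9 to 48.2 CPM in the knockouts (edgeR adjusted p = 0.315), and the chemerin and resolvin receptor gene Cmklr1 was the most abundant of the list at 184 ± 36.7 and 185 ± 37.2 CPM. Of 5 prostanoid receptor genes tested none was called by edgeR or limma-voom, and DESeq2 called 1, Ptger2 (1 at an unadjusted edgeR p under 0.05). Ptger4, a prostaglandin E2 receptor, stood at 69.9 ± 5.74 CPM in the controls against 58.8 ± 21.4 CPM in the knockouts, and its relative Ptger2 at 5.19 ± 1.44 and 2.75 ± 0.807 CPM (edgeR adjusted p = 0.611 and 0.140). The thromboxane receptor gene Tbxa2r did not exceed 0.291 CPM in any library and was not tested, and Oxgr1 and Ptgdr had 0 counts in every library, which allows at most 0.0857 CPM.

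Genes that supply and return arachidonic acid held no call either, with 0 of 11 release genes and 0 of 9 reacylation genes past the threshold. The cytosolic phospholipase A2 gene Pla2g4a ran from 26.8 to 58.1 CPM in the controls against 32.4 to 69.1 CPM in the knockouts, and was named for its role after its values were seen. The most abundant release genes in the controls were the lysosomal phospholipase gene Pla2g15 at 437 ± 37.8 and 382 ± 70.9 CPM, the diacylglycerol lipase gene Daglb at 171 ± 11.99 and 183 ± 44.0 CPM, and Plaa at 47.5 ± 3.88 and 45.4 ± 11.5 CPM. Among reacylation genes the acyltransferase gene Lpcat2 stood at 421 ± 18.7 and 431 ± 63.0 CPM, and the ligase genes Acsl5 at 197 ± 23.4 and 181 ± 30.5 CPM and Acsl1 at 79.9 ± 18.9 and 119 ± 52.5 CPM. DESeq2 and limma-voom also called none of these 20 genes, and their edgeR adjusted p ran from 0.163 to 0.992, with 3 at an unadjusted p under 0.05.

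Of the enzymes and carriers downstream, 1 of 10 leukotriene conversion and export genes was lower, Cyp4f18. Abcc1, a transporter that exports leukotriene C4, stood at 55.6 ± 10.7 CPM in the controls against 85.6 ± 18.4 CPM in the knockouts, and Cyp4f16 at 57.5 ± 12.7 and 40.9 ± 5.49 CPM (edgeR adjusted p = 0.106 and 0.167). None of 6 prostanoid breakdown and transport genes was called by edgeR, DESeq2 or limma-voom, with 1, Hpgd, at an unadjusted edgeR p under 0.05. Hpgd, which inactivates prostaglandins, stood at 21.1, 13.5, 32.6, 39.9 and 26.4 CPM in the controls against 43.6, 47.4, 19.9, 67.9 and 101.0 CPM in the knockouts (log2 fold change 1.07, SE 0.40, edgeR adjusted p = 0.232). Its knockout library 3 lay inside the control range and the other 4 above it. Ptgr1 and Ptgr2, reductases of the same breakdown route, had log2 fold changes of 0.21 and 0.08. Of 6 other prostanoid synthase genes none was called by edgeR, DESeq2 or limma-voom and 0 had an unadjusted edgeR p under 0.05, with Akr1b3 at 117 ± 11.4 and 132 ± 13.8 CPM, Prxl2b at 76.8 ± 18.5 and 83.7 ± 19.5 CPM and Ptges3 at 49.3 ± 6.11 and 46.0 ± 10.3 CPM. Among other lipoxygenases only Aloxe3 could be tested, at 0.545 ± 0.367 and 0.301 ± 0.161 CPM, while Alox8 and Alox12e did not exceed 0.420 and 0.709 CPM and Alox12b had 0 counts in every library. Of 5 epoxygenase and hydrolase genes 1 was higher, Ephx1, and the epoxygenase genes Cyp2j6 and Cyp2j9 had log2 fold changes of -0.49 and -0.33.

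**Figure D5:**
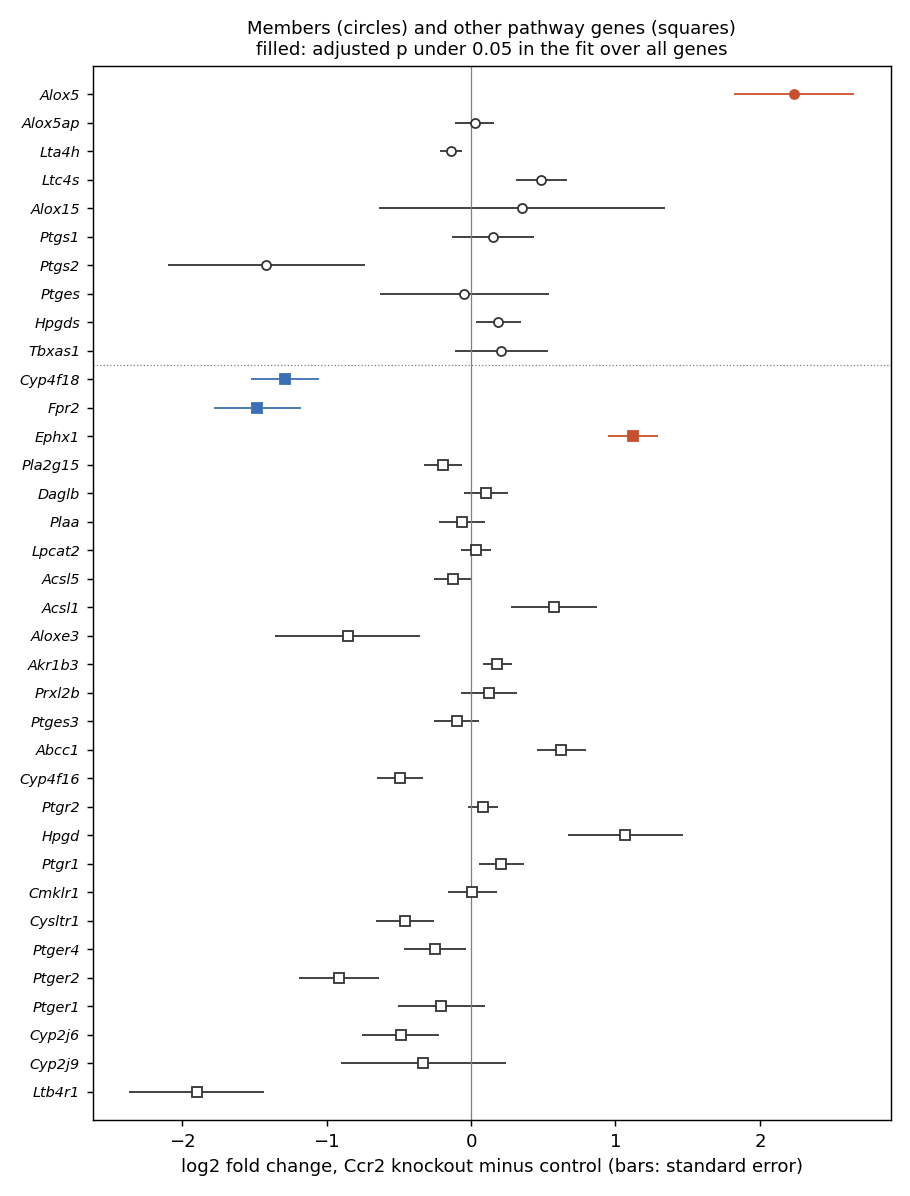
Log2 fold change of Ccr2 knockout against control with its standard error for the 10 members (circles, above the dotted line) and the other pathway genes named (squares), filled where the adjusted p is under 0.05. Alox5 and Ephx1 are filled to the right of 0 and Cyp4f18 and Fpr2 to the left.

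Other cells of a tumour can also carry these transcripts, and in bulk libraries fewer cells of a type and less RNA per cell cannot be told apart. The marker lists were chosen with earlier results of these data known, so their counts of called genes are given as a description. Mast cell and basophil markers, known sources of leukotrienes and prostaglandin D2, summed to 4.37 to 44.7 CPM in the controls against 6.38 to 30.2 CPM in the knockouts with 0 of 7 tested genes called by edgeR or DESeq2 and 0 at an unadjusted edgeR p under 0.05, and Mcpt8 did not exceed 0.120 CPM. Neutrophil markers, whose cells express Alox5 and Ltb4r1, summed to 169 to 659 CPM in the controls against 116 to 223 CPM in the knockouts with 0 of 10 tested genes called by edgeR, 6 at an unadjusted p under 0.05, 4 called by DESeq2 and all 10 log2 fold changes negative. Dendritic cell markers summed to 24.6 to 60.4 and 10.8 to 31.3 CPM, with 1 of 10 lower by edgeR and 2 of 10 called by DESeq2. Batf3 carried 54.8% of the dendritic cell sum, and the other 9 genes summed to 13.7 to 39.3 and 6.08 to 14.5 CPM. Platelet and megakaryocyte markers, whose cells express Ptgs1 and Tbxas1, had a sum that was carried by Pf4, which macrophages also express, at 174 to 344 and 287 to 851 CPM (of 3 tested, 0 called by edgeR, 1 at an unadjusted p under 0.05, 1 called by DESeq2). In the same comparison, with 0.543% of all genes tested lower, 7 of 10 classical monocyte genes were lower. Their sums, 2168 to 5961 and 1655 to 4065 CPM, were carried by Fn1, which was not called, and the other 9 summed to 549 to 1503 CPM in the controls against 24.9 to 132 CPM in the knockouts. In the same fit, with 0.87% of all genes tested higher, 5 of 10 resident-like macrophage genes were higher. Their sums were 1700 to 2820 and 2720 to 4668 CPM. Mrc1 carried 47.6% of these sums. The other 9 genes summed to 913 to 1254 CPM in the controls against 1593 to 2370 CPM in the knockouts. Knockout libraries 1 and 3 had the highest resident-like sums, 4668 and 4128 CPM with Mrc1 and 2221 and 2370 CPM without it. The part of any of these populations in the levels of Alox5, Cyp4f18, Fpr2 and Ephx1 was not tested. In knockout libraries 1 and 3, where Alox5 was highest, the mast cell and basophil markers summed to 29.1 and 30.2 CPM, above the other knockout libraries (6.38 to 9.39 CPM) and inside the control range. Hdc carried 54.4% of the mast cell and basophil sum over all libraries. The other 11 genes summed to 7.36, 6.55, 20.4, 5.01 and 5.92 CPM in knockout libraries 1 to 5. Knockout library 3 then stood apart, and knockout library 1 lay near the remaining knockouts. The neutrophil markers summed to 223 CPM in knockout library 1, the highest of the knockouts, and to 157 CPM in knockout library 3. Csf3r carried 51.5% of the neutrophil sum over all libraries. Without it the other 13 genes summed to 115, 7.75, 81.7, 22.0 and 48.0 CPM in knockout libraries 1 to 5. Libraries 1 and 3 were then the highest knockouts, inside the control range of 24.2 to 482 CPM. Core macrophage markers summed to 28098 to 33414 CPM in controls and 29749 to 38535 CPM in knockouts, with 1 of 10 higher, Cd68. The T and NK cell sum ran from 77.1 to 167 and from 88.7 to 228 CPM (1 of 8 higher, Cd4, and 7 of 8 log2 fold changes negative). Cd4 carried that sum, and the other 9 genes summed to 25.97 to 91.5 CPM in the controls, to 93.4 CPM in knockout library 2 and to 2.03 to 23.9 CPM in the other knockouts. The B cell sum ran from 41.1 to 74.5 and from 16.4 to 61.8 CPM (of 3 tested, 0 called by edgeR or DESeq2, 1 at an unadjusted edgeR p under 0.05). Cd79b carried 83.0% of the B cell sum. The other 5 genes summed to 1.80 to 14.8 CPM in the controls against 2.72 to 23.6 CPM in the knockouts. The endothelial sum ran from 38.0 to 88.8 and from 25.2 to 39.0 CPM (of 6 tested, 0 called by edgeR, 2 at an unadjusted p under 0.05, 1 called by DESeq2) and the melanoma sum from 32.96 to 57.3 and from 31.2 to 59.9 CPM (1 of 4 higher, Trpm1). Pecam1 carried 48.0% of the endothelial sum, and the other 5 genes summed to 19.2 to 33.9 and 17.4 to 25.8 CPM. Sox10 carried 55.2% of the melanoma sum, and the other 7 genes summed to 14.4 to 29.4 and 17.2 to 25.9 CPM.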

How the data were processed

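RNA was measured in 10 libraries of F4/80+ macrophages, 5 control and 5 Ccr2 knockout, grouped by the genotype label; the titles call the control group wild type. Polyadenylated RNA went into directional libraries, per the labels' protocols. The deposited values are whole-number read counts per gene, which the authors made with STAR on the GRCm39 build according to the submitters' processing notes. The labels name neither the STAR version nor the annotation. The reverse-strand column, with 96.2% to 96.5% of strand-assigned counts, was used. Unmapped (6.87% to 8.07% of reads), unassigned (3.63% to 5.68%) and ambiguous (1.83% to 2.10%) rows stayed out of library sizes, and multimapping reads were listed as 0. A combined table whose 10 columns carry no names was not used.

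All genes were fitted with edgeR 4.0.16 in R 4.3.3 (filterByExpr with a minimum count of 10, TMM, quasi-likelihood F-test, Benjamini-Hochberg adjustment, threshold 0.05), checked on simulated counts. The standard error is the log2 fold change divided by the square root of F. Log2 CPM used a prior count of 2. Exon lengths came from GENCODE M21 on GRCm38 and promoters from RefSeq on GRCm38.p6. Of 55359 gene identifiers 52083 matched a symbol; Prxl2b was matched through a synonym. Alternatives used DESeq2 1.42.0 and limma 3.58.1, and figures matplotlib 3.10.9.

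Members and lists were chosen with earlier results of these data known. Named genes were all members, pathway genes past the threshold, the 3 most abundant of each pathway list and the 5 nearest profiles to Alox5. Ltb4r1, Pla2g4a, Tbxa2r, Oxgr1, Ptgdr, Alox12b and the neighbours of Ptgs2 and Alox15 were chosen after their values were seen.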

Additional observations from a re-analysis of the deposited data

Results flagged for a closer look

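Within a genotype, 10 of the 78 groups of 5 libraries examined for the members, the named pathway genes and Ccr2 had 1 library far from the other 4 (its gap to the nearest library over 0.71 of the group's range), and chance marks about 1 in 20 groups. Among the members these were Alox5ap in control library 5 (634 CPM, nearest 457), Alox15 in control library 4 (17.2 CPM, nearest 4.25) and Ptges in knockout library 3 (4.33 CPM, nearest 1.08). Among pathway genes they were Abcc1 and Acsl5 in control library 5 (74.0 CPM, nearest 53.9, and 155.6 CPM, nearest 205.6), Ephx1 and Alox12e in control library 4 (17.6 CPM, nearest 13.02, and 0.348 CPM, nearest 0.0486), Lpcat2 in control library 2 (453 CPM, nearest 421), and Aloxe3 and Cyp2j9 in knockout library 4 (0.587 CPM, nearest 0.264, and 0.416 CPM, nearest 1.22). Control libraries 4 and 5 and knockout library 4 each account for more than 1 of these.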

How the results depend on the processing

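Alox5 kept a positive log2 fold change in all 22 alternatives, from 1.94 to 2.60. It was picked with this contrast known and the alternatives refit the same libraries, so nothing is read from the constant sign. The count of members called stayed at 1 with DESeq2, limma-voom, other scalings, other filters, unstranded counts and robust dispersions, ranged from 0 to 1 with 1 library left out, and was 0 with the close control pairs summed and 0 with knockout libraries 4 and 5 summed as well. The count of other pathway genes called, 3, became 6 with DESeq2 (Abcc1, Ltb4r1 and Ptger2 added), 1 to 3 with 1 library left out, 0 with the control pairs summed, 0 with knockout libraries 4 and 5 summed as well and 0 without those 2 libraries. The 203 calls over all genes became 820 with DESeq2, 446 with limma-voom, 62 to 267 with 1 library left out, 29 with the control pairs summed, 8 with knockout libraries 4 and 5 summed as well and 50 without them. The cause of these differences was not tested, beyond the fewer libraries that each sum or omission leaves.

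With the title number as a replicate block 55 of all genes, 0 members and 0 other pathway genes were called. Numbers do not pair the libraries: the correlations of same-numbered deviations were 0.34, 0.08, -0.53, 0.18 and -0.22, and of the same-numbered pairs only control and knockout library 1 each correlated best with the other, as did 2 pairs of different numbers (control 3 with knockout 5, control 5 with knockout 3). Whether depth limits the calls was not tested. Ptges rests on fewer than 100 counts in 8 of the 10 libraries and Alox15 in 4.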
